A study of Mus musculus with 6 samples.

Results

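Gene expression in the growth plate of mice labelled ATF6bKO was compared with that of wild-type mice (WT) on Agilent oligonucleotide arrays, with 2 arrays of each genotype. These are 4 of the 6 arrays of the study, chosen by their genotype labels, and the other 2 are labelled ATF6aKO. All mice were untreated C57BL/6J males aged 4 weeks, kept under specific-pathogen-free conditions, and the RNA came from the growth plate of the tibia, taken with a laser microdissector. The labels describe the extraction from snap-frozen hind limb bone, and from each sample 150 ng of RNA was amplified and labelled with Cy5. They do not say how the alleles were made, whether they are deleted in all tissues, or whether the 2 arrays of a genotype come from different mice, so the p-values below measure only the spread between these arrays, which may be technical.

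The growth plate is the band of cartilage that lengthens a long bone. Its chondrocytes rest, divide in columns, enlarge into hypertrophic cells and are replaced by bone, and throughout they secrete large amounts of collagen and proteoglycan. Proteins for secretion fold in the endoplasmic reticulum (ER), and when unfolded protein accumulates there, the transcription factors ATF6 (also called ATF6α) and ATF6β travel to the Golgi, are cut from the membrane, and move to the nucleus. ATF6α is known as a strong activator of genes for ER chaperones and for ER-associated degradation. ATF6β is its close relative and is known as a weaker activator.

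On these arrays the genotype cannot be told apart from the slide and the scanner channel. Both ATF6bKO arrays lay on the slide of the ATF6aKO arrays and were read in the red channel, whereas both WT arrays lay on another slide and were read in their only channel. The median spot intensity was 162.5 and 146 on the ATF6bKO arrays and 259.5 and 210 on the WT arrays, against a median local background of 37 and 17. After normalisation, the Pearson correlation over all probes was 0.9881 between the ATF6bKO arrays and 0.96 between the WT arrays. It was 0.88 to 0.9057 between an ATF6bKO and a WT array, and 0.971 to 0.9821 between an ATF6bKO and an ATF6aKO array. Values below are normalised log2 intensities, and differences are ATF6bKO minus WT on that scale, with the standard error (SE) of the limma fit. A gene is called when its limma p-value, adjusted by the Benjamini-Hochberg method over the 19122 genes tested, is under 0.05, and a gene is represented by its brightest probe. By this rule 7190 genes, or 37.6%, were called, of which 3313 (17.3%) were higher in ATF6bKO and 3877 (20.3%) lower. The median difference over all genes was -0.05. Without regard to p, the ATF6bKO and WT arrays did not overlap in 6375 genes (33.3%) with ATF6bKO higher and 7552 (39.5%) with ATF6bKO lower. With each array scaled to its 75th percentile in place of quantile normalisation, the median was 0.15, and 4800 of 7865 called genes (61.0%) were higher, against 46.1% of those called in the first place. Leaving out an ATF6bKO array reduced the calls to 3099 without the first and 3807 without the second. In ATF6bKO against ATF6aKO, which share slide and channel, 0 genes (0%) were called by limma. Of the 19122 genes, 1169 had an unadjusted limma p under 0.05, a limit that some genes pass where nothing differs. With 2 arrays per genotype, 16665 genes were measured well above background on all 4 arrays, 37 on both ATF6bKO arrays and neither WT array, and 743 on both WT arrays and neither ATF6bKO array. This flag is set within each channel, so the genotype cannot be told apart from the channel in these counts either.

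The targeted gene was examined first. Atf6b, which encodes ATF6β, had a level of 8.77 and 8.41 on the ATF6bKO arrays, 9.06 and 9.19 on the WT arrays, and 8.92 and 8.48 on the ATF6aKO arrays. Both ATF6bKO values lay below both WT values and within or just below the range of the ATF6aKO values. The difference from WT was -0.54 ± 0.21 (SE), with a limma adjusted p of 0.0824, and that from ATF6aKO was -0.11. Atf6b was measured by 1 probe, and the labels do not give the deleted part of the gene, so the probe does not check the genotype. The paralogue Atf6 had a level of 6.91 and 7.01 in ATF6bKO and of 7.05 and 7.28 in WT. Its difference of -0.21 ± 0.16 (SE) was not called (limma adjusted p = 0.355).

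Among cartilage matrix proteins, 9 of 30 genes tested (30%) were called higher in ATF6bKO, 2 (6.67%) were called lower and 19 were not called. Over all genes, 17.3% were called higher and 20.3% lower. Only 5 of the 30 genes had several probes, and of these 0 were called higher by all probes, 0 lower by all, and 0 in opposite directions. Among all genes with several probes, 4.1%, 5.64% and 5.91% were so called. The median difference of the 30 genes was 0.44, against -0.05 over all genes, and it was 0.12 without the first ATF6bKO array and 0.85 without the second. The genes called higher include Col2a1, the chain of type II collagen, Matn1, a matrilin that links matrix fibrils, and Snorc, a transmembrane proteoglycan of chondrocytes. Col2a1 had a level of 14.51 and 13.25 on the ATF6bKO arrays and of 10.88 and 11.15 on the WT arrays. Both ATF6bKO arrays were above both WT arrays, a 7.26-fold difference (2.86 ± 0.37 SE on the log2 scale, limma adjusted p = 0.00177), and the ATF6aKO arrays were higher still at 15.06 and 15.36. Matn1 had the same order, at 10.71 and 9.92 in ATF6bKO, 8.24 and 7.47 in WT, and 12.21 and 12.48 in ATF6aKO. Its level was 5.52-fold that of WT (limma adjusted p = 0.00191). Acan, the large aggregating proteoglycan of cartilage, was at 13.00 and 11.45 in ATF6bKO against 10.41 and 10.81 in WT, a 3.07-fold difference (limma adjusted p = 0.0247). Col2a1, Acan and Col10a1, which define the tissue, were well above background on all 4 arrays. Col11a2, a chain of the type XI collagen at the core of cartilage fibrils, and Comp, a pentameric glycoprotein that binds collagen, differed the other way. Col11a2 was at 9.09 and 8.57 in ATF6bKO and 10.51 and 10.23 in WT, 2.92-fold lower. Comp was at 12.51 and 11.38 in ATF6bKO and 12.87 and 13.27 in WT, 2.18-fold lower (limma adjusted p = 0.043). For both genes the ATF6bKO arrays lay below the WT arrays without overlap. The call of Acan was lost without the first ATF6bKO array (0.84, limma adjusted p = 0.072), and that of Comp without the second ATF6bKO array (-0.56) or the second WT array (-0.92). Neither was called without the first ATF6aKO array, which enters through the shared spread (limma adjusted p = 0.0523 for Acan and 0.069 for Comp), and over all alternatives Comp kept its call in 6 of 16 and Acan in 9.

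The ATF6bKO arrays differed from each other in cartilage genes. The summed intensity of the 30 cartilage genes was 83389 on the first and 43498 on the second, against 33102 and 36949 on the WT arrays and 138814 and 153595 on the ATF6aKO arrays. Expressed as the median deviation from each gene's mean, the list stood at 0.09 and -0.56 in ATF6bKO, -0.78 and -0.62 in WT, and 0.71 and 1.02 in ATF6aKO. The second ATF6bKO array was thus nearer to WT than the first. In bulk tissue of this kind, fewer cells of a type and less RNA per cell cannot be told apart. Against ATF6aKO the cartilage genes had a median difference of -1.15, and no member was called in that comparison. Against WT, the cartilage count was 6 higher and 3 lower without the first ATF6bKO array, and 11 higher and 1 lower without the second.

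**Figure D1:**
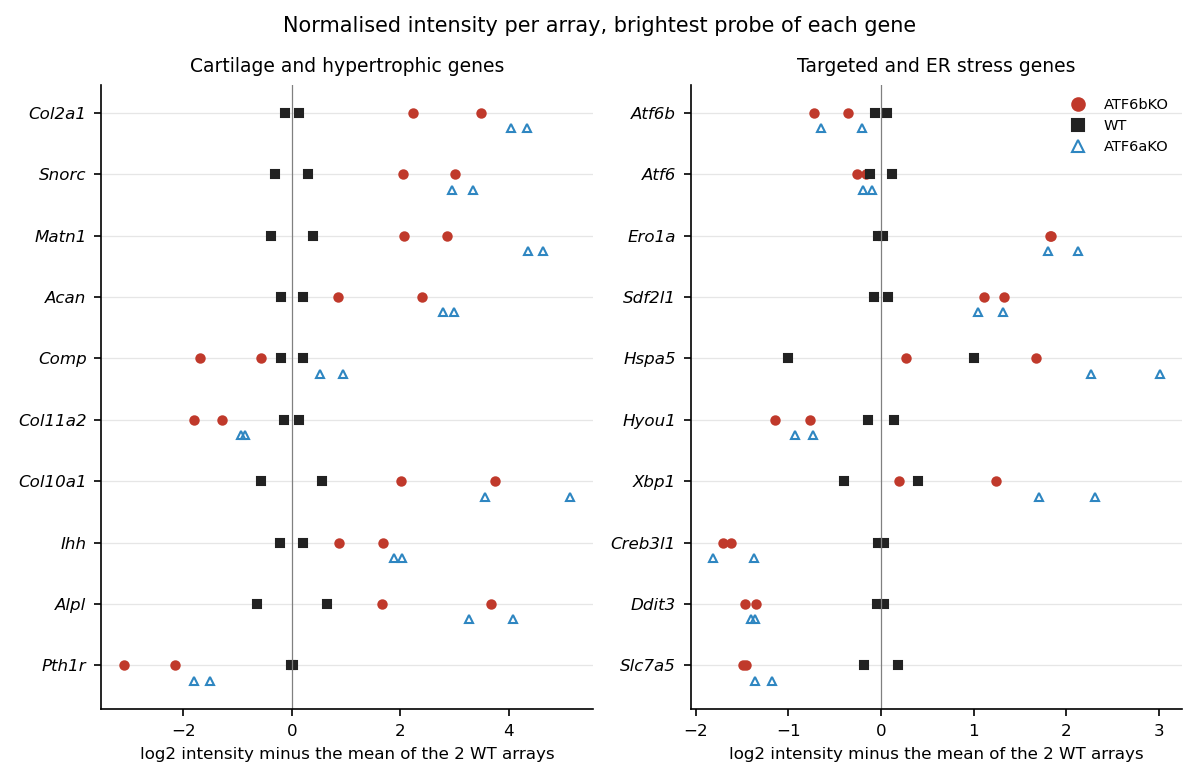
Each row is 1 gene, and each symbol is 1 array: the normalised log2 intensity of the brightest probe minus the mean of the 2 WT arrays. Col2a1, Matn1 and Col10a1 lie to the right of WT on both ATF6bKO arrays and Pth1r to the left, whereas the ATF6bKO arrays of Hspa5 (10.49 and 9.09) overlap the range of WT (9.82 and 7.81).

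The markers of the hypertrophic zone did not share a direction. Of 22 hypertrophic and mineralising chondrocyte genes tested, 5 were called higher and 5 lower, with a median difference of -0.50. Each share was 22.7%, near the 17.3% higher and 20.3% lower of all genes. The median was 0.08 without the first WT array and -0.56 without the second, so its sign rests on the first WT array. Col10a1, the collagen that defines hypertrophic chondrocytes, was at 12.48 and 10.74 in ATF6bKO and 9.30 and 8.17 in WT, 7.33-fold higher (2.87 ± 0.69 SE, limma adjusted p = 0.0152). Ihh, the hedgehog ligand of prehypertrophic cells, was at 9.07 and 8.26 against 7.17 and 7.59, 2.43-fold higher. Alpl, the phosphatase needed for mineralisation, was at 11.42 and 9.40 against 8.40 and 7.10, 6.33-fold higher. These 3 genes were higher on both ATF6bKO arrays without overlap, and the first ATF6bKO array was the higher in each. Pth1r, the receptor through which parathyroid hormone-related protein delays hypertrophy, went the other way at 9.38 and 8.42 against 11.55 and 11.50, 6.17-fold lower (limma adjusted p = 0.00118). Each of these 4 genes was measured by 1 probe. Without the first ATF6bKO array, Col10a1, Ihh and Alpl differed by 2.0, 0.88 and 1.65 and were no longer called.

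Resting zone genes were lower where they were called. Of 11 tested, 0 were called higher by limma and 5 (45.5%) were called lower, against 17.3% and 20.3% over all genes. The median difference was -0.51, and at an unadjusted limma p under 0.05 there were 0 higher and 5 lower. Apoe, a lipid carrier of the resting zone, was at 9.05 and 9.01 in ATF6bKO and 10.55 and 10.37 in WT, 2.69-fold lower. The ATF6aKO arrays, at 9.05 and 8.90, read close to those of ATF6bKO. Gas1, a membrane protein that binds hedgehog ligands, had 3 probes, with differences of -0.85, -0.63 and -0.11, of which the first 2 were called. The count of resting zone genes called lower was 2 without either ATF6bKO array, and Gas1 was then not called.

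Among chondrocyte transcription factors, 2 of 23 tested (25 on the array) were called higher and 4 lower, or 8.70% and 17.4%. Over all genes these shares were 17.3% and 20.3%. The median was 0.07 but -0.15 when all probes of a gene were averaged. Trps1, a GATA-type repressor active in growth plate chondrocytes, was called higher by all 3 of its probes, with differences of 1.08 ± 0.25, 0.92 ± 0.23 and 1.78 ± 0.20 (SE). The third probe read 8.78 and 8.86 in ATF6bKO and 7.04 and 7.03 in WT. Epas1, which encodes the hypoxia-inducible factor HIF-2α, had a brightest probe at 9.84 and 9.88 in ATF6bKO and 12.40 and 11.97 in WT, 5.01-fold lower. Its other 2 probes differed by -0.42 and -0.18 and were not called, so its probes shared a sign but not a size. Sox9, the master regulator of chondrocytes, was not well above background on either WT array and on 1 of the ATF6bKO arrays, and its difference of 0.34 ± 0.28 (SE) was not called, although with 75th percentile scaling it was (0.89). Without the first ATF6bKO array the brightest probe of Trps1 differed by 0.72 and was not called.

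Growth plate signalling genes were called in both directions in similar number, 10 of 47 tested (50 on the array) higher and 11 lower. These shares of 21.3% and 23.4% were near the 17.3% and 20.3% of all genes. Tgfb2, a ligand of the TGF-β family, was at 9.19 and 8.72 in ATF6bKO and 6.76 and 6.92 in WT by its brightest probe, 4.32-fold higher, whereas the other probe gave 0.05. Gli3, a transcription factor of the hedgehog pathway with 1 probe, was at 9.01 and 8.93 against 7.67 and 7.60, 2.52-fold higher. Fgfr3, the receptor that restrains chondrocyte division, was called in opposite directions by its probes. The brighter read 11.11 and 10.62 in ATF6bKO and 12.003 and 13.07 in WT (-1.67 ± 0.39 SE), and the other read 11.29 and 10.04 against 7.66 and 8.27 (2.70 ± 0.39 SE). No direction can be given for such a gene. The brighter probe of Fgfr3 was not called without the second ATF6bKO array (-1.43).

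Genes that build and modify the matrix were also divided. In the synthesis and sulfation of glycosaminoglycans, 6 of 27 tested genes (29 on the array) were called higher and 5 lower. These shares of 22.2% and 18.5% were near the 17.3% and 20.3% of all genes. Slc35d1, a nucleotide sugar transporter needed for chondroitin sulfate, was at 11.05 and 10.46 in ATF6bKO and 8.38 and 6.01 in WT, where 1 array was not well above background. Both ATF6bKO values exceeded both WT values (3.56 ± 0.65 SE, limma adjusted p = 0.00554), and the difference was 4.74 without the first WT array and 2.38 without the second, which was the dim one. Of the collagen modification genes, 3 of 32 (9.38%) were called higher and 7 (21.9%) lower. P3h4 and Fkbp10, partners in the hydroxylation of collagen, were 4.43-fold and 4.32-fold higher in ATF6bKO, with the first array more than 1 log2 unit above the second in each (10.69 and 9.17 for P3h4). Without the first ATF6bKO array both genes differed by 1.38 and were still called. Loxl1, which crosslinks elastin and collagen, was called lower by both its probes, at -1.24 ± 0.18 and -0.89 ± 0.18 (SE).

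The ER genes were examined because ATF6 proteins are known to act on them through the ER stress response element, spelled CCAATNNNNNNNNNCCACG, where N is any base. This spelling was searched on both strands in 300-base windows from 250 bases before to 50 after each gene start in RefSeq (GRCm38.p6), and 39 of 32851 windows held it (0.119%). Of the 19122 genes tested, 15198 had a window and 23 had a match. The windows of 4 well-known ER stress genes are shown, on the strand of the gene, because they carry the element of the pathway that was targeted. Capitals mark the match, which on the opposite strand reads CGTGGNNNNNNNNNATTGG.
Hspa5: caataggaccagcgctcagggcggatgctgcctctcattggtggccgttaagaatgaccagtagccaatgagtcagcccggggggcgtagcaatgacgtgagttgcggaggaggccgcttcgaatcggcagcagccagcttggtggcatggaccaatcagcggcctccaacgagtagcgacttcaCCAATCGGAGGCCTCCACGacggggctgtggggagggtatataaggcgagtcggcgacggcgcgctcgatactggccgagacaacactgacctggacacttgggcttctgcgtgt
Hsp90b1: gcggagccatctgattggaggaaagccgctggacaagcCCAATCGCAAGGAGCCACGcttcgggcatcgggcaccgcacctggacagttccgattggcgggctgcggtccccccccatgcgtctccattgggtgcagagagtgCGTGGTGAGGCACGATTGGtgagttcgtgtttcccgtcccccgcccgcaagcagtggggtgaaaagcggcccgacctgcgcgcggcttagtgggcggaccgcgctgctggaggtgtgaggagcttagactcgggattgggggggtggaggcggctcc
Calr: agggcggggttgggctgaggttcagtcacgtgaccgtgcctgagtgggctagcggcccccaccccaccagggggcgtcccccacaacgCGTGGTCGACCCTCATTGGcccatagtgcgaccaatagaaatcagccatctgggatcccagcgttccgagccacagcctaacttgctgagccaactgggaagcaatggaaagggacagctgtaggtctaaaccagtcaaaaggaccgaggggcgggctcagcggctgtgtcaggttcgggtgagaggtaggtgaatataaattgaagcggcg
Creld2: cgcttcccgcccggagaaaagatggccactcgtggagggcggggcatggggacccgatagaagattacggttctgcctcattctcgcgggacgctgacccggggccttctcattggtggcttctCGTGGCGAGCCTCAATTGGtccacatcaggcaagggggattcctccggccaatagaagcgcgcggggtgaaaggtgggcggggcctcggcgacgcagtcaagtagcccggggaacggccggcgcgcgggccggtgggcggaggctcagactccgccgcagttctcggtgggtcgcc
Hspa5, the main ER chaperone BiP, lies at chr2:34771840-34772139 on the plus strand, and Hsp90b1, the chaperone GRP94, at chr10:86705395-86705694 on the minus strand with 2 matches. Calr, the lectin chaperone calreticulin, lies at chr8:84846882-84847181 on the minus strand, and Creld2, an ER stress-inducible protein of the ER lumen, at chr15:88819396-88819695 on the plus strand. None of these 4 genes was called. Hspa5 was at 10.49 and 9.09 in ATF6bKO and 9.82 and 7.81 in WT, so the genotypes overlapped, and its difference was 0.98 ± 0.68 (SE, limma adjusted p = 0.288). The differences of Hsp90b1, Calr and Creld2 were 0.40 ± 0.51, -0.87 ± 0.29 and -0.23 ± 0.18 (SE), and the limma adjusted p of Calr was 0.0504. Hspa5 was called higher without the first WT array (1.98), and Calr was called lower without the second WT array (-1.15) or the first ATF6bKO array (-1.21). Of the 23 genes with a match, 1 was called higher and 3 lower, or 4.35% and 13.0%, and their median difference was -0.15. Of the 15175 genes with a window but no match, 17.6% were called higher and 19.9% lower, and their median was -0.05. The called genes with a match were Xlr3b, at 1.12, and Spats2l, Olfr59 and Hnrnpa3, at -1.20, -0.74 and -0.81, named here after their values were seen. No probe of Spats2l was well above background on all 4 ATF6bKO and WT arrays. Without the first ATF6bKO array Xlr3b, Olfr59 and Hnrnpa3 were not called (0.89, -0.65 and -0.80), and Olfr59 and Hnrnpa3 were not called without the second (-0.82 and -0.83), nor Hnrnpa3 without the second WT array (-0.64). A match in these letters is a description of the window and not a measured binding site.

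Of 43 ER chaperones and folding enzymes, 6 were called higher in ATF6bKO and 4 lower, shares of 14.0% and 9.30% against 17.3% and 20.3% over all genes. Ero1a, the oxidase that drives disulfide formation, was at 9.68 and 9.67 in ATF6bKO and 7.82 and 7.87 in WT, 3.56-fold higher (limma adjusted p = 0.000783). Sdf2l1, a cofactor of BiP, was at 10.20 and 9.97 against 8.94 and 8.78, 2.33-fold higher. Hyou1, an ER chaperone induced by low oxygen, was at 7.53 and 7.16 against 8.44 and 8.17, 1.94-fold lower. In each of these 3 genes the ATF6bKO and WT arrays did not overlap, and the ATF6aKO arrays lay within 0.3 log2 units of the ATF6bKO range. The median of the list was 0.02 and changed sign with the processing, to -0.04 when probes were averaged. The list had 9 genes called higher and 3 lower without the first WT array, and 5 higher and 10 lower without the second. Hyou1 was not called without the second ATF6bKO array (-0.77).

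Of 22 ER stress sensors and their transcription factors, 2 (9.09%) were called higher and 4 (18.2%) lower, against 17.3% and 20.3% over all genes. Ddit3, the pro-apoptotic factor CHOP, was at 7.23 and 7.11 in ATF6bKO and 8.62 and 8.54 in WT, 2.65-fold lower (-1.41 ± 0.15 SE, limma adjusted p = 0.0011). Creb3l1, a membrane-bound transcription factor of the secretory pathway in bone, was at 10.01 and 9.93 against 11.60 and 11.66, 3.16-fold lower. Eif2ak3, the sensor kinase PERK, was at 6.86 and 6.68 against 6.02 and 6.11, and since neither WT array was well above background it was at least 1.63-fold higher. Xbp1, the factor spliced by the sensor IRE1, was at 8.25 and 7.20 against 7.40 and 6.60 and was not called (limma adjusted p = 0.196), but was called higher without the first WT array (1.12). The levels of Ddit3 on the ATF6aKO arrays, 7.17 and 7.22, lay inside the range of the ATF6bKO arrays. Eif2ak3 was not called without the first ATF6bKO array (0.61).

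The PERK and ATF4 stress genes had a median of -0.26. Of 40, 3 (7.5%) were called higher and 9 (22.5%) lower, against 17.3% and 20.3% over all genes. These counts were 1 and 4 without the first ATF6bKO array and 2 and 3 without the second. Slc7a5, the light chain of the large neutral amino acid transporter, was called lower by both its probes. The brighter read 7.15 and 7.18 in ATF6bKO and 8.83 and 8.46 in WT (-1.48 ± 0.18 SE), and the other gave -1.26 ± 0.20 (SE). Slc3a2, the heavy chain of the same transporter, was 1.77-fold lower, whereas Slc7a1, a cationic amino acid transporter, was 3.09-fold higher. Slc3a2 was not called without the second ATF6bKO array (-0.76).

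ER-associated degradation, which returns misfolded proteins to the cytosol, had 3 of 30 tested members (33 on the array) called higher and 9 lower. These are 10% and 30%, against 17.3% and 20.3% over all genes, and the median was -0.28. The counts higher and lower were 1 and 4 without the first ATF6bKO array and 3 and 4 without the second. Rnf5, a membrane ubiquitin ligase, was at 9.17 and 9.41 in ATF6bKO and 10.76 and 10.57 in WT, 2.60-fold lower. Derl2, a channel component, was 2.18-fold lower by its brightest probe, whereas its other 2 probes gave -0.30 and -0.08 and were not called. In the translocon and N-glycosylation list, 9 of 48 (18.8%) were called higher and 7 (14.6%) lower. Tusc3, a subunit of the oligosaccharyltransferase, was at 10.31 and 10.17 against 8.82 and 7.97, 3.59-fold higher, and Srprb, the membrane subunit of the signal recognition particle receptor, was at 10.53 and 10.68 against 13.23 and 12.17, 4.27-fold lower. Of the COPII and COPI coat genes, which carry cargo between ER and Golgi, 6 of 51 (11.8%) were called higher and 10 (19.6%) lower. Kdelr1, the receptor that retrieves ER proteins from the Golgi, was 4.12-fold lower by its brightest probe, at 7.89 and 7.78 against 10.02 and 9.73, while the other probe gave -0.30 and was not called.

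**Figure D2:**
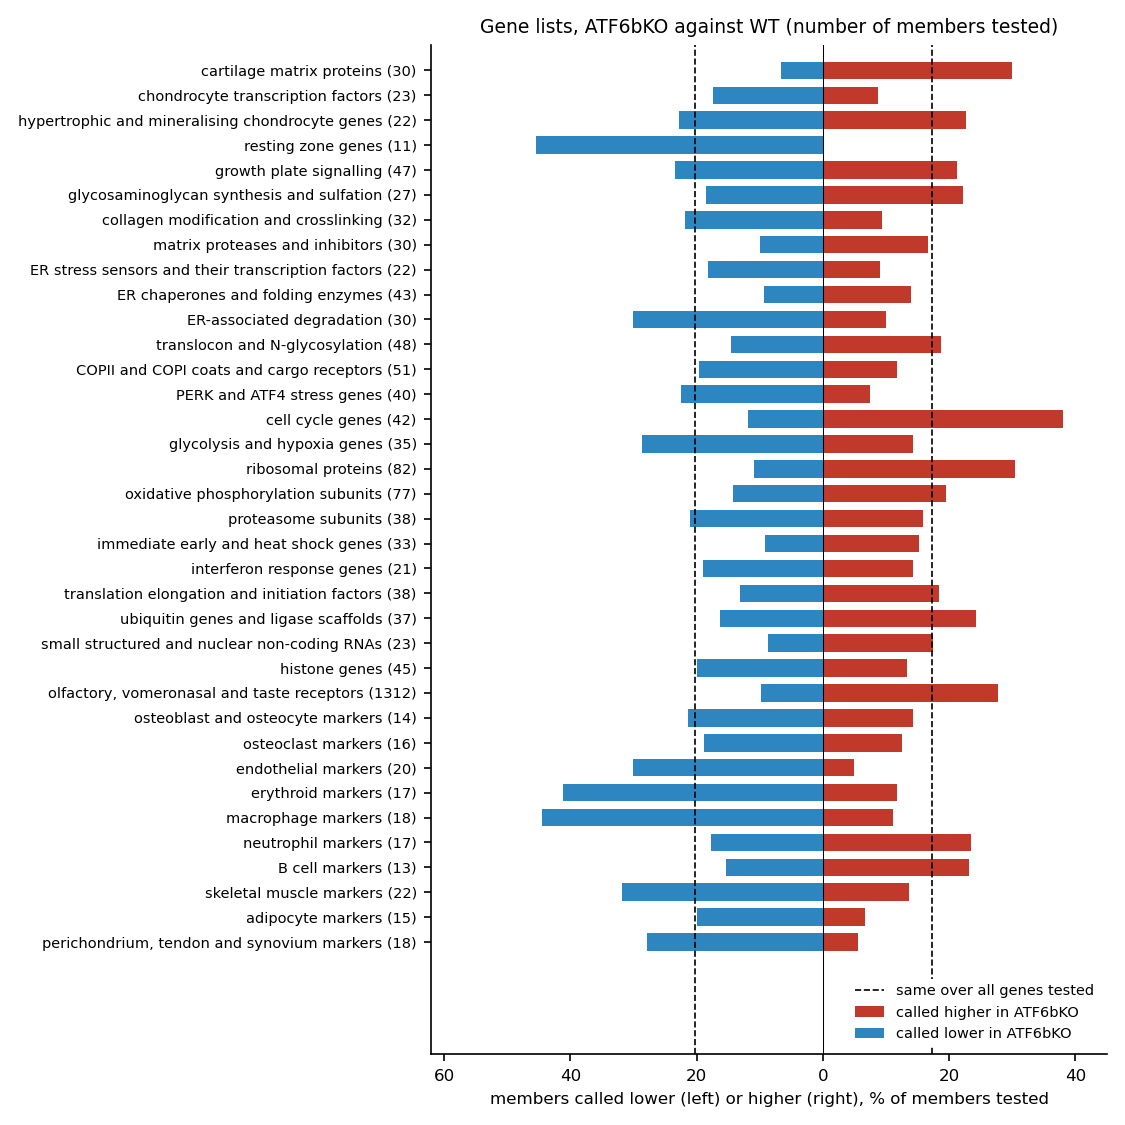
For each gene list the bars give the percentage of its tested members called higher (right) or lower (left) in ATF6bKO than in WT, and the dashed lines give the same over all 19122 genes (17.3% and 20.3%). Cell cycle genes reach 38.1% higher and resting zone genes 45.5% lower, but the latter list holds only 11 genes. Of the 9 cell cycle genes with several probes, 0 were called higher by all of them.

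Because slide and channel differ with genotype, genes measured by several probes were examined for agreement. Of 4859 genes with 2 or more probes, 199 (4.1%) had all probes called higher in ATF6bKO, 274 (5.64%) had all probes called lower, and 287 (5.91%) had probes called in opposite directions. A further 2138 genes had probes of 1 sign that were not all called, and 1961 had probes of mixed sign. The 473 genes with agreeing calls fell to 110 without the first ATF6bKO array and to 155 without the second. When the brightest and the next probe of each gene were set side by side, 2817 of 4859 pairs (58.0%) had the same sign, and the differences had a Pearson correlation of 0.25 across genes, which are not independent replicates. Where both probes were called, 570 of 795 pairs went the same way and 225 opposite ways. The share with the same sign was 55.5% where the dimmer probe was among the dimmest of 4 equal bins of intensity and 60.9% where it was among the brightest. Among pairs whose probes were designed to different RefSeq transcripts it was 52.8% of 542, against 58.6% of 4317 for the same transcript. For the difference between ATF6bKO and ATF6aKO, measured within the slide and channel, the correlation between probes was 0.46, and all 28 pairs in which both probes passed 1 log2 unit had the same sign. For ATF6bKO minus WT the same count was 176 of 218. Between the 2 WT arrays the correlation was 0.25, 60.9% of pairs had the same sign, and the count was 53 of 53. Between the 2 ATF6bKO arrays these values were 0.16, 52.9% and 4 of 4. Probe agreement for ATF6bKO minus WT was thus no higher than between the WT arrays.

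**Figure D3:**
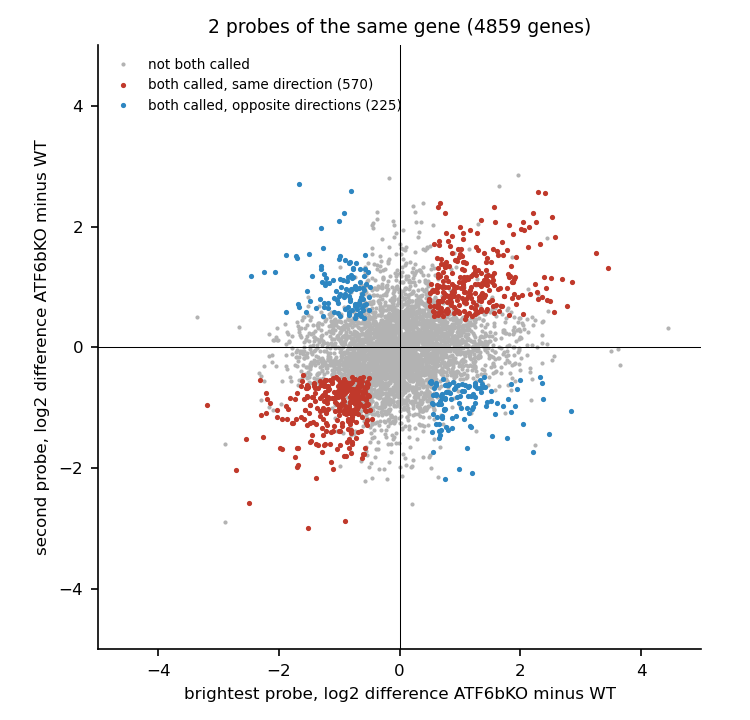
Each point is a gene with 2 or more probes, placed by the log2 difference (ATF6bKO minus WT) of its brightest probe on the horizontal axis and of its next probe on the vertical axis. Red points (570) have both probes called in the same direction and blue points (225) in opposite directions.

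Restricting the agreeing genes to those whose probes were all well above background on all 4 arrays, with ATF6bKO and WT arrays not overlapping, left 180 higher and 212 lower in ATF6bKO. All probes differed by more than 2-fold in 60 and 52 of them. The genes described next are among the 15 each way whose least changed probe differed most once clone-like symbols (such as Gm and a number, or those ending in Rik) are passed over. Atp5l, a subunit of the mitochondrial ATP synthase, was higher on all 5 of its probes, with differences from 1.52 to 2.29. Its brightest probe read 12.48 and 12.44 in ATF6bKO, 10.47 and 10.32 in WT, and 12.57 and 12.73 in ATF6aKO. Uqcrh, the hinge subunit of complex III, was higher on both probes by 2.01 ± 0.46 and 1.96 ± 0.32 (SE), and its brightest was not called without the first ATF6bKO array (1.59). Fbxw7, the substrate receptor of a ubiquitin ligase that marks cyclin E and Myc for degradation, was at 11.29 and 11.28 against 8.15 and 7.92 on its brightest probe (3.25 ± 0.16 SE) and differed by 1.55 ± 0.15 (SE) on the other. Set, a histone chaperone, was higher on its 3 probes by 2.58, 1.83 and 1.48, and the WT arrays differed by over 1 log2 unit on the first (9.43 and 8.08) and the third (8.27 and 6.49). Cxcr6, a chemokine receptor of lymphocytes, was at 9.47 and 9.69 against 7.19 and 7.45, and its probes differed by 2.26 and 2.07. Erh, a small conserved nuclear protein, differed by 2.15 and 2.0, and Tasor, a subunit of the HUSH silencing complex, by 2.33 and 1.72. C5ar2, a complement receptor, Tubb2b, a β-tubulin, Morf4l1, a chromatin reader, Rab10, a small GTPase of vesicle transport, and Gosr2, a Golgi SNARE, had smallest differences of 1.87, 1.69, 1.60, 1.5 and 1.53. For Cxcr6, Tubb2b and Tasor the ATF6bKO arrays differed from the ATF6aKO arrays by 0.05, 0.06 and 0.06 on the brightest probe. Other genes lay further from ATF6aKO: the smallest absolute difference over the probes was 0.78 for Uqcrh, 0.35 for Erh and 0.26 for Rab10.

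The genes lower on every probe included Serpinf1, Srm, Rps2 and Slc1a5. Serpinf1, the secreted anti-angiogenic protein PEDF that bone cells make, had a wide WT spread, at 8.11 and 7.93 in ATF6bKO and 12.05 and 8.98 in WT (-2.49 ± 0.81 SE, limma adjusted p = 0.0458). Its other probe differed by -2.58 ± 0.67 (SE). The difference of the brightest was -0.96 without the first WT array and -4.03 without the second, and it was not called without either ATF6bKO array (-2.58 and -2.40) or either ATF6aKO array, which enter through the shared spread. Serpinf1 kept its call in 8 of 16 alternatives. Srm, which makes spermidine, differed by -1.69 and -1.94. Rps2, a protein of the small ribosomal subunit, was at 11.13 and 11.30 against 13.27 and 12.53, and its probes differed by -1.69 and -1.67. Slc1a5, a glutamine transporter, differed by -1.44 and -1.45, and Ass1, an enzyme of arginine synthesis, by -1.28 and -1.34. Cyba, a subunit of the phagocyte NADPH oxidase, was at 6.58 and 6.71 against 10.27 and 9.03 on the dimmer of its probes (-3.00 ± 0.36 SE) and differed by -1.52 ± 0.24 (SE) on the other. Hcn2, a pacemaker channel, Foxl2, a transcription factor of the ovary, Myh8, a perinatal muscle myosin, and Cpt1c, a carnitine palmitoyltransferase of neurons, are known from other tissues and were also lower on both probes with smallest differences of -1.52, -1.69, -1.48 and -1.29. Of the 3 largest bounds among genes of several probes whose brightest was not well above background in ATF6bKO, Tnfaip2, a protein induced by tumour necrosis factor, was at least 2.39-fold lower, Dscaml1, a neuronal adhesion protein, at least 1.73-fold, and Zcchc24 at least 1.65-fold. No gene of several probes gave such a bound in the other direction, but the background flag is set within each channel, and channel and genotype cannot be told apart. The calls of Dscaml1 and Zcchc24 were lost without the first ATF6bKO array (-0.72 and -0.86), that of Zcchc24 also without the second (-0.42) or the first WT array (-0.64), and that of Dscaml1 without the second WT array (-0.61).

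**Figure D4:**
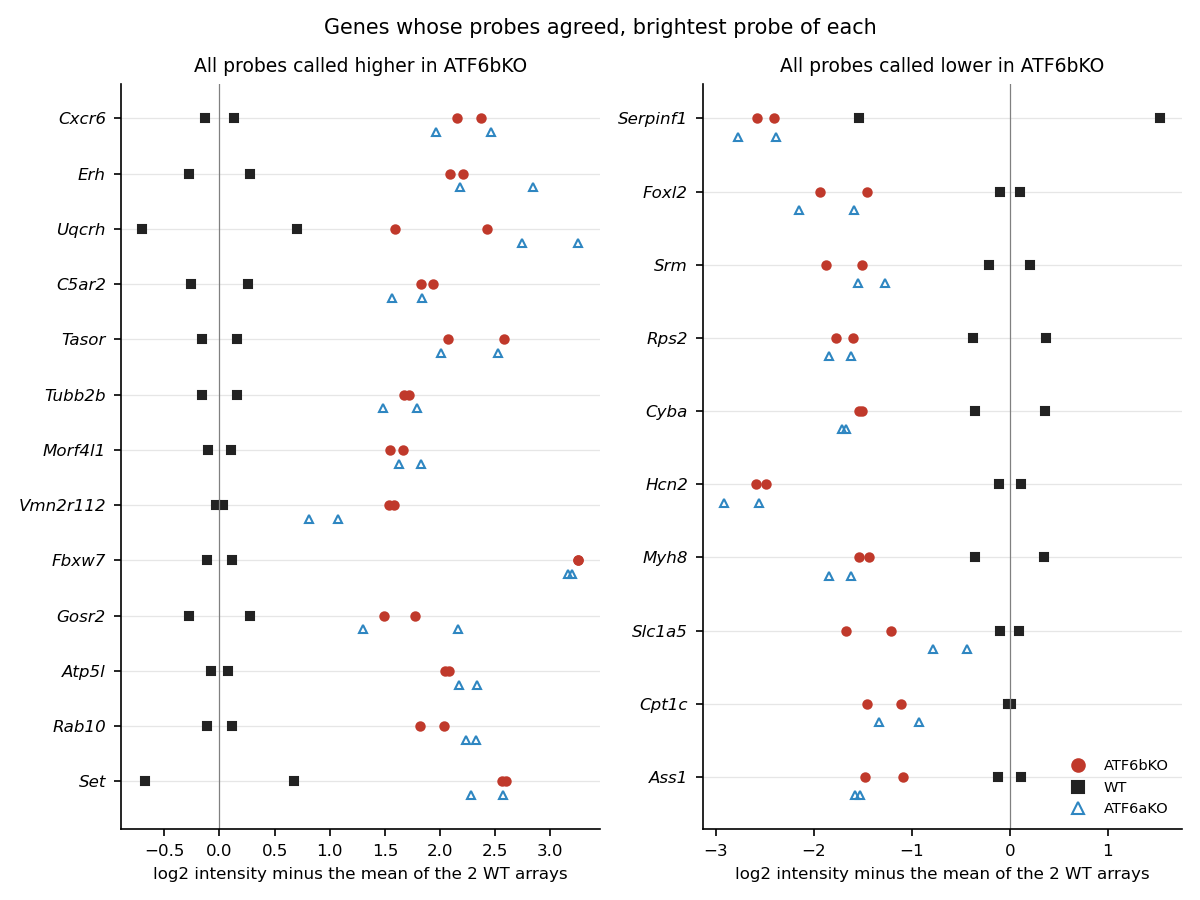
Genes named in the text, 13 higher and 10 lower, from the 15 each way whose least changed probe differed most among genes with all probes called the same way and no clone-like symbol, are shown by their brightest probe, each symbol being 1 array as the log2 intensity minus the mean of the 2 WT arrays. In each gene the ATF6bKO arrays lie apart from the WT arrays because the choice of genes required it. The choice set no condition on the level of the ATF6aKO arrays, but they entered it through the shared spread and the filter on dim probes. Their distance from the ATF6bKO arrays varied. Over the probes of a gene, the smallest absolute difference was 0.05 for Cxcr6, 0.35 for Erh and 0.78 for Uqcrh.

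Of the 180 genes higher and 212 lower left by the restriction above, 10 and 12 had both ATF6bKO arrays beyond those of ATF6aKO and WT on every probe. Separation from WT was required for entry, and the same count over all genes is not given, so these counts have no background share. Of the 10, 4 have clone-like symbols and were passed over in choosing genes to name, among them Gm3448, named after its values were seen, whose probes differed from ATF6aKO by at least 1.02. Vmn2r112, a vomeronasal receptor gene, was at 10.16 and 10.20 in ATF6bKO, 9.43 and 9.70 in ATF6aKO, and 8.59 and 8.66 in WT on its brightest probe. Pramel39, of a gene family expressed in germ cells, was at 10.98 and 10.91, 10.57 and 10.68, and 9.37 and 9.47 in the same order. Among the lower genes, Vps25, a subunit of the ESCRT-II complex of endosomal sorting, had 3 probes that differed by -1.36, -1.01 and -1.41 from WT and by -0.44, -0.41 and -0.37 from ATF6aKO. Rpl23a, a protein of the large ribosomal subunit, was at 10.83 and 10.699 in ATF6bKO, 11.16 and 11.46 in ATF6aKO, and 11.76 and 11.49 in WT. Rpl12, of the same subunit, had differences of -1.23 and -1.25 from WT and of -0.49 and -0.90 from ATF6aKO. Without either ATF6bKO array neither gene was called against WT in the fit of brightest probes, and Rpl12 was not called without the first WT array (-0.49) or either ATF6aKO array. Rpl12 kept its call in 6 of 16 alternatives. None of these genes was called against ATF6aKO, so the step between the knockouts is given as values only.

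Genes of protein synthesis, energy metabolism and division were called in both directions. Of 82 ribosomal proteins, 25 (30.5%) were called higher and 9 (10.98%) lower, against 17.3% and 20.3% over all genes, with a median of 0.26. Leaving out the first or the second ATF6bKO array left 11 or 14 called higher, and 5 lower in both cases. Of the 50 with several probes, 6 were called higher by all probes, 3 lower by all, and 3 in opposite directions. Among all genes with several probes, 4.1%, 5.64% and 5.91% were so called. Rpl36 read 11.88 and 11.77 in ATF6bKO and 9.70 and 9.86 in WT on its brightest probe (2.05 ± 0.20 SE), while Rps18 read 9.16 and 9.26 against 11.56 and 11.45 (-2.30 ± 0.18 SE). Since ribosomal protein genes have many processed pseudogenes of near-identical sequence, which of them a probe measures is uncertain. The balance of the list turned on the WT arrays: 41 were called higher and 8 lower without the first, and 18 higher and 22 lower without the second. Of the translation factors, 7 of 38 (18.4%) were called higher and 5 (13.2%) lower. Eef2, the elongation factor that moves the ribosome along the mRNA, was at 9.16 and 9.21 against 12.98 and 12.68, 12.5-fold lower on its only probe. Eif2s1, the α subunit of eIF2 that PERK phosphorylates, was at 9.78 and 9.83 against 7.88 and 7.93 and was called higher by both probes, at 1.90 ± 0.17 and 0.88 ± 0.20 (SE).

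Of 42 cell cycle genes tested (44 on the array), 16 (38.1%) were called higher and 5 (11.9%) lower, against 17.3% and 20.3% over all genes. Of the 9 with several probes, 0 were called higher by all probes, 0 lower by all, and 1 in opposite directions. Among all genes with several probes, 4.1%, 5.64% and 5.91% were so called. The list median of 0.28, against -0.05 over all genes, was 0.38 with 75th percentile scaling and 0.48 with the processed signal. The median over all genes was then 0.15 and -0.08. Without the first ATF6bKO array 8 were called higher and 3 lower, and without the second 9 and 2. Ccne1, cyclin E, was at 8.92 and 9.14 in ATF6bKO and 6.87 and 7.13 in WT, 4.08-fold higher on its brightest probe, whereas its other probe gave 0.40 and was not called. That other probe was the brighter without either ATF6bKO array, where Ccne1 was not called (0.37 and 0.43), and without the second ATF6aKO array, where it was not called either (0.40). Mcm2, a subunit of the replicative helicase, was at 7.58 and 7.62 against 6.5 and 6.53, 2.12-fold higher, and Gins2, of the same replisome, was 2.45-fold lower. On the ATF6aKO arrays Ccne1 was at 8.89 and 8.93 and Mcm2 at 7.51 and 7.57, within 0.3 log2 units of ATF6bKO. In the glycolysis and hypoxia list, 5 of 35 (14.3%) were called higher and 10 (28.6%) lower. Of the 13 members with several probes, 4 were called in opposite directions, against 5.91% of all genes with several probes. Ldha, lactate dehydrogenase A, differed by 2.48 ± 0.31 on its brightest probe and by -1.44 ± 0.19 (SE) on the next, so its direction depends on the probe. Pfkl, the liver-type phosphofructokinase, was at 9.01 and 8.52 against 11.24 and 11.67, 6.46-fold lower on 1 probe. Oxidative phosphorylation subunits were called higher in 15 of 77 (19.5%) and lower in 11 (14.3%). Among small nuclear and structured RNAs, 4 of 23 (17.4%) were called higher and 2 (8.70%) lower. Those higher include Rmrp and Rpph1, the RNA components of RNase MRP and RNase P. Rmrp was at 12.10 and 11.37 against 8.64 and 8.56, 8.80-fold higher, and Rpph1 was 6.20-fold higher, with the ATF6aKO arrays at 12.12 and 11.52 for Rmrp.

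The largest list was that of olfactory, vomeronasal and taste receptors, which sense chemicals in the nose and tongue. Of 1312 tested (1364 on the array), 364 (27.7%) were called higher in ATF6bKO and 128 (9.76%) lower, against 17.3% and 20.3% over all genes. The median was 0.22, and 0.45 with scaling to the 75th percentile of each array, which also moved the median over all genes from -0.05 to 0.15. There were 182 higher and 46 lower without the first ATF6bKO array, and 186 and 65 without the second. Of the 111 with several probes, 12 were called higher by all, 6 lower by all and 3 in opposite directions. Among all genes with several probes, 4.1%, 5.64% and 5.91% were so called. Vmn2r68 was at 9.97 and 9.998 in ATF6bKO and 7.73 and 7.58 in WT, 5.01-fold higher, and Olfr212 was at 8.81 and 8.98 against 11.38 and 11.60, 6.05-fold lower. The ATF6aKO arrays read 9.75 and 9.995 for Vmn2r68, next to those of ATF6bKO. The frequency of calls also moved with brightness over all genes: 5.42% were called higher and 14.4% lower in the dimmest of 4 equal bins of genes, against 25.7% and 22.2% in the brightest.

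Markers of cell types that border the growth plate were called lower more often than higher in 8 of the 10 lists, as were all genes (20.3% lower and 17.3% higher). In the osteoclast and adipocyte lists the share called lower was under that of all genes. The part of these markers in the results above was not tested. Of 17 erythroid markers, 7 were called lower and 2 higher. Without the first ATF6bKO array 3 erythroid markers were called lower, and without the second 4. Hba-a1, an α-globin chain, was at 7.98 and 7.71 in ATF6bKO, 7.75 and 7.40 in ATF6aKO, and 14.81 and 11.76 in WT, 43.4-fold lower (-5.44 ± 0.81 SE, limma adjusted p = 0.00265). The difference was -3.92 without the first WT array and -6.96 without the second. Slc4a1, the anion exchanger of red cells, was at 8.13 and 8.35 against 10.43 and 10.44, 4.57-fold lower, and both knockouts read alike. The summed intensity of the list was 30438 and 32950 in ATF6bKO against 74091 and 49507 in WT. Of 20 endothelial markers, 6 were called lower and 1 higher, and Plvap, a protein of fenestrated vessels, was lower on both probes, at -1.88 ± 0.15 and -0.97 ± 0.18 (SE). Of 18 macrophage markers, 8 were called lower and 2 higher, the latter being Lyz2 and Lyz1, lysozymes that neutrophils also hold. Macrophage markers called lower numbered 2 without the first ATF6bKO array and 3 without the second. The summed intensity of this list was 17688 and 16584 in ATF6bKO and 16006 and 13756 in WT, so the sum and the median of -0.64 differ in direction.

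Of 14 osteoblast and osteocyte markers, 3 (21.4%) were called lower and 2 (14.3%) higher, against 20.3% and 17.3% over all genes, with a median of -0.86. Here the WT arrays differed from each other: the median deviation was 1.19 on the first and -0.40 on the second, against -0.15 and -0.48 in ATF6bKO. Bglap2, osteocalcin, was at 8.96 and 9.09 in ATF6bKO and 10.56 and 10.22 in WT, 2.57-fold lower. Of 16 osteoclast markers, 3 were called lower and 2 higher, and Tcirg1, a proton pump subunit, was at 7.39 and 7.59 against 10.62 and 8.75. Its difference of -2.20 was -1.26 without the first WT array, and was not called without the first (-2.09) or the second (-2.30) ATF6bKO array. The summed osteoclast intensity was 25435 on the first WT array and between 9186 and 9543 on the second WT array and both ATF6bKO arrays. Skeletal muscle markers had 7 of 22 called lower and 3 higher, neutrophil markers 3 of 17 lower and 4 higher, B cell markers 2 of 13 lower and 3 higher, adipocyte markers 3 of 15 lower and 1 higher, and those of perichondrium, tendon and synovium 5 of 18 lower and 1 higher. No list member was at 0, and of the 19 osteoblast and osteocyte, 18 erythroid and 21 endothelial markers on the arrays, 14, 17 and 20 passed the filter on dim probes, as did all members of the other marker lists.

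**Figure D5:**
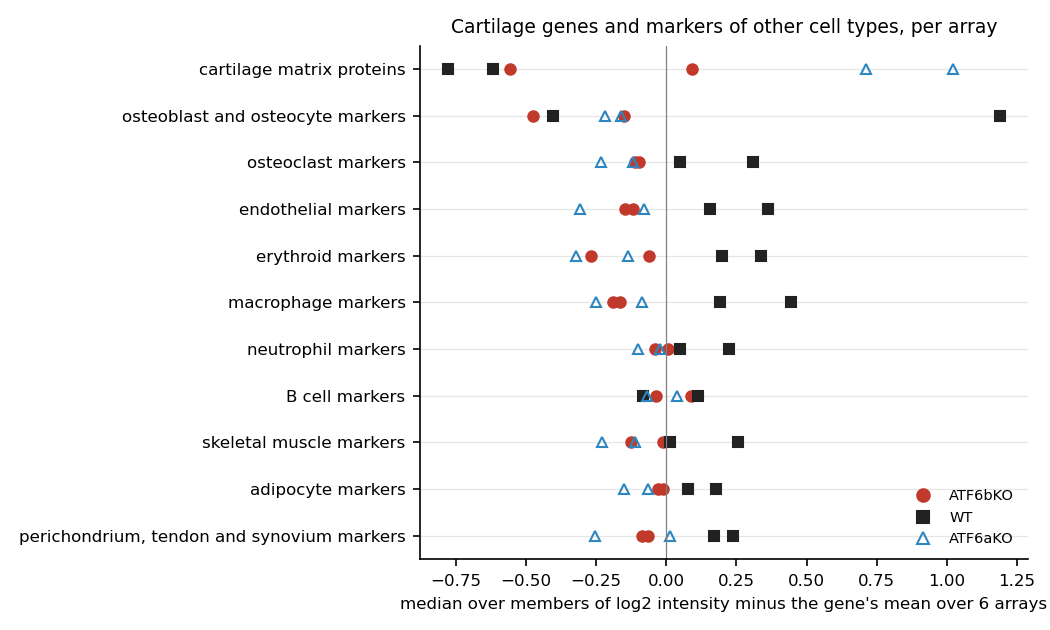
Each symbol is 1 array, placed at the median over the members of a list of the log2 intensity minus each gene's mean over the 6 arrays. Cartilage genes separate the ATF6aKO arrays (0.71 and 1.02) from the rest, and the first WT array stands at 1.19 for osteoblast and osteocyte markers.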

How the data were processed

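RNA from 2 arrays of each of 3 genotypes (ATF6aKO, ATF6bKO, WT) was measured on an Agilent mouse array. Spot intensity was deposited as scanner output, which the submitters' processing notes credit to Agilent Feature Extraction 10.7.1.1. Per the file headers, extraction used 2 channels (Cy5 only) for the knockouts and 1 channel, called green, for WT, so intensity was taken from the red channel for the knockouts and from the sole channel for WT. The authors' deposited value table holds log2 values, found by setting its columns against the scanner signals. Its knockout columns follow the green channel, and how it was centred stays unknown, so it served only as an alternative. The median of its columns was 0 and 0.231 for ATF6bKO and -0.5 and -0.5 for WT.

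From the deposited intensity values, median spot signals were background-corrected with normexp (offset 50, limma 3.58.1 in R 4.3.3), taken to log2 and quantile-normalised over 55393 probes. Control spots and spots with outlier flags were left out (288 probes), and repeated spots were averaged. Of these probes, 26490 matched 20095 gene symbols through the RefSeq accession printed in the files, and 28903 matched none and were not used in the gene fit. Probes had to be well above background in both replicates of some genotype. Each gene was represented by its brightest such probe. limma (lmFit, eBayes) was fitted over all 6 arrays so that the genotypes share 1 estimate of spread, and p-values were adjusted by the Benjamini-Hochberg method. The same fit over all kept probes gave the agreement of probes. No covariate could separate slide and channel from genotype. The number of arrays limits the precision. On simulated data with 200 of 19122 genes changed, 49.5%, 99.5% and 100% of changes of 1, 2 and 4 log2 units were recovered in ATF6bKO against WT. The simulated arrays had no slide or channel shift, and far fewer genes changed than were called in the data. These shares therefore do not give the recovery in the data.

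The genes named are the targeted genes, the 15 agreeing genes each way whose least changed probe differed most (clone-like symbols, such as Gm and a number or those ending in Rik, passed over), the 3 largest bounds, up to 3 members each way of each list with the smallest adjusted p, members with opposite calls, up to 6 genes each way beyond both other genotypes (clone-like symbols again passed over), and a fixed set of growth plate and ER genes. Not all of them are printed. A bound sets the brighter genotype against, per array, the higher of the lowest signal well above background and the probe's own signal. Members and the 36 gene lists were chosen with earlier results of these data known. Promoter windows come from RefSeq (GRCm38.p6). Alternatives covered scaling, signal, offset, filter, summary of probes, eBayes options, arrays in the fit, a replicate block and leaving out each array. Array replicate numbers were checked for pairing: the replicate 1 minus 2 differences of ATF6bKO correlated with those of WT at r of 0.20 and with those of ATF6aKO at r of -0.16 across genes. The arrays were not treated as paired in the main fit. With a single such difference per genotype, the check cannot decide whether the numbers pair them.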

Additional observations from a re-analysis of the deposited data

Results flagged for a closer look

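The green channel of the ATF6bKO arrays, which the comparison does not use, held signal although the labels give Cy5 alone. On the first ATF6bKO array 12.5% of the 59305 noncontrol spots were well above background in green, against 0.649% of 308 negative control spots. On the second it was 8.45%, also against 0.649%. Its source was not tested.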

How the results depend on the processing

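With ATF6bKO against WT, the number of called genes was 6630 with the replicate block, 6747 with the mean over probes, 6845 of 16723 where every array had to be well above background, 7124 with an offset of 16, 7333 with the processed signal and 7865 with 75th percentile scaling, against 7190, and 9692 in the authors' deposited values. Leaving out 1 array gave 3099 to 7034 called genes, 110 to 453 genes with agreeing probes and, against ATF6aKO, 0 to 13 called genes (13 without either WT array, 8 without the second ATF6aKO array). The low counts of called and agreeing genes were those without an ATF6bKO array. Each fit without 1 array, also of WT or ATF6aKO, leaves a single array of a genotype, assumed to vary like the other genotypes. The reason for the low counts was not tested. The replicate block, which rests on shared numbers only, moved agreeing genes from 473 to 403. With probes averaged, Fgfr3 turned to 0.52 and Hnrnpa3 to 0.0284. The difference of Ldha turned to -1.44 in the fit of only the 4 arrays and without the second ATF6aKO array, and to -1.43 without the first ATF6bKO array, where another of its probes was the brightest, and was 2.84 without the second. Beside the arrays left out and the authors' values, calls of named genes were lost as follows. With the eBayes trend and robust options they were those of Acan, Alpl, Col10a1, Comp, Rpl12, Serpinf1, Slc35d1, Tcirg1 and Uqcrh. In the fit of only the 4 arrays they were those of Acan, Ccne1, Comp, Rpl12, Serpinf1 and Tgfb2, where Ccne1 (0.40) and Tgfb2 (0.05) were read on another probe. With the processed signal they were those of Acan, Ccne1, Comp, Hnrnpa3, Serpinf1 and Zcchc24, with 75th percentile scaling Comp, Dscaml1 and Zcchc24, with an offset of 16 Comp and Rpl12, with probes averaged Derl2 and Ldha, without a filter Rpl12, and with the replicate block Comp. Calr gained a call with the block, with the trend and robust options and where every array had to be well above background. The authors' deposited table takes its knockout values from the unlabelled green channel, and there signs turned for Atf6 2.52, Col2a1 -0.95, Matn1 -0.47, Snorc -1.45, Acan -1.75, Col10a1 -0.54, Gas1 1.05, Loxl1 0.63, Calr 6.00, Creld2 8, Spats2l 0.40, Hyou1 1.04, Ddit3 3.75, Slc3a2 6.60, Derl2 2.45, Fbxw7 -0.35, C5ar2 -0.46, Tubb2b -0.10, Srm 2.25, Rps2 3.60, Ass1 1.05, Tnfaip2 2.45, Dscaml1 1.20, Zcchc24 4.60, Vmn2r112 -0.30, Pramel39 -2.35, Vps25 0.0079, Rpl23a 3.36, Rpl12 3.45, Rps18 3.04, Eef2 2.28, Gins2 0.40, Ldha -0.59, Rpph1 -1.87, Lyz2 -1.05 and Lyz1 -0.21. A further 24 named genes kept their sign there but lost their call. By those values 6920 genes were called higher and 2772 lower, and 2342 of the called genes shared call and direction with those given above. Signal over background limits the dim genes, where Eif2ak3, Tnfaip2, Dscaml1 and Zcchc24 have only bounds on their brightest probe. No setting can separate slide and channel from genotype.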
